A study of Mus musculus with 6 samples.

Results

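The genes described here encode the MYC transcription factors and the proteins that share their partner MAX. They are the 3 MYC genes Mycn, Myc and Mycl, their obligate partner Max, the MXD repressors Mxd1, Mxd3, Mxd4 and Mxi1, and the large MAX-binding proteins Mnt and Mga. Members were taken by gene symbol, which gave 10 of 52550 genes and 56 of 131100 transcripts in the deposited tables. Expression was measured by RNA-seq of total RNA from 6 mouse medulloblastomas, malignant tumours of the cerebellum, 3 labelled Eed mutant and 3 labelled wild type for EED. Eed encodes a core subunit of Polycomb repressive complex 2, a histone methyltransferase that keeps developmental genes silent. The sources used here do not give the Eed allele, how it was introduced, the strain, the age of the mice or the genetic cause of the tumours. The labels do not tie each tumour to its own mouse, so every p here reflects the spread among these 6 samples, which may be technical.

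MYC proteins bind DNA only as a pair with MAX, mostly at the E-box sequence CACGTG, and raise transcription of genes for ribosome production, nucleotide synthesis and growth. MXD proteins and MNT pair with the same MAX and bring the SIN3 corepressor to the same sites, while MGA joins a Polycomb-like repressor complex, PRC1.6. In the cerebellum Mycn is the MYC gene that Sonic hedgehog induces in granule neuron progenitors, and MYCN or MYC amplification marks human medulloblastomas of poor outcome.

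Depth was even, at 26186236 to 26425111 estimated counts in a library, and 28424 to 28635 genes had counts. Granule progenitor markers, 7 of 7 of them measured, summed to 2744, 3529 and 2907 CPM (estimated counts scaled to the library size with TMM factors) in the Eed mutants and to 3072, 4004 and 3356 CPM in wild type. Wild-type replicate 2 stood apart, with the highest sum of 11 oligodendrocyte markers (621, 577 and 662 CPM in the Eed mutants, against 771, 1680 and 1069 CPM in wild-type replicates 1 to 3). Its sum of 8 differentiated granule neuron markers was also the highest (585, 795 and 680 CPM in the mutants, against 792, 1228 and 755 CPM in wild type). Eed RNA, at 33.3 ± 3.12 CPM in the mutants and 36.5 ± 6.87 CPM in wild type (SD, n = 3 each), did not pass the test (log2 fold change -0.13, SE 0.144, edgeR adjusted p = 0.656), and it does not check the labels where the allele is unknown. In bulk samples fewer cells of a type and less RNA per cell cannot be told apart.

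Promoters of the members were searched for CACGTG, the site that MYC and MAX pairs bind, to show which network genes carry it at their own start. The motif is its own reverse complement, so both strands are covered at once. RefSeq windows on GRCm38.p6, 250 bases before to 50 bases after the start, were found for 9 of 10 members (11 windows). Mnt, Mxd4 and Max held the motif, in 3 of 11 windows, against 2349 of 32851 windows over all genes (7.15%). The windows of Mnt and Mxd4 are shown whole up to the start and that of Max as the 30 bases around the motif, with CACGTG in capitals:
Mnt, GRCm38.p6 chr11:74830674-74830923, plus strand: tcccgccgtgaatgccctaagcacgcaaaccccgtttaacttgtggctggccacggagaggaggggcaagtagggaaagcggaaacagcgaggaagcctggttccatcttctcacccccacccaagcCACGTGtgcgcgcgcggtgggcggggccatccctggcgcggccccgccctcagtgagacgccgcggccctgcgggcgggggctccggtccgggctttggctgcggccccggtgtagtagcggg
Mxd4, GRCm38.p6 chr5:34187711-34187960, minus strand: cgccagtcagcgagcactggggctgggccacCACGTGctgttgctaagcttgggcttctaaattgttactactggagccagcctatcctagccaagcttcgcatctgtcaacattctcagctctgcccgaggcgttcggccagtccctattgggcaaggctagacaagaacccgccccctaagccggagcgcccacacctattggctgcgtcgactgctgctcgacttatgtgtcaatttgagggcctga
Max, GRCm38.p6 chr12:76962234-76962263, minus strand: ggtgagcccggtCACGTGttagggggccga
The motif began 123 bases before the start in Mnt, 219 bases before it in Mxd4 and 3 bases before it in Max. A match is a description of the letters and not a binding site.

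No member passed the test between the Eed mutant and wild-type tumours, and Myc and Mxi1 came nearest. edgeR's quasi-likelihood test, adjusted over 19145 genes, called 0 of the 10 members, where it called 0 of all genes (0% of those tested) and the smallest adjusted p was 0.0808. DESeq2 also called 0 of the 10, against 5.22% of all genes (2.96% higher in the mutants and 2.26% lower). Mxi1, lower in the mutants, was the only member with an unadjusted edgeR p under 0.05, a level that 18.1% of all genes reached (9.29% higher and 8.78% lower). The groups did not overlap for 2 of the 10 members, Myc, higher in the Eed mutants, and Mxi1, lower in them. Over all genes tested 25.0% had groups that did not overlap (13.1% higher and 11.9% lower), so the members did not exceed that background. The median log2 fold change (mutant minus wild type) was -0.03 over the members and -0.01 over all genes, with 5 members above 0 and 5 below.

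**Figure D1:**
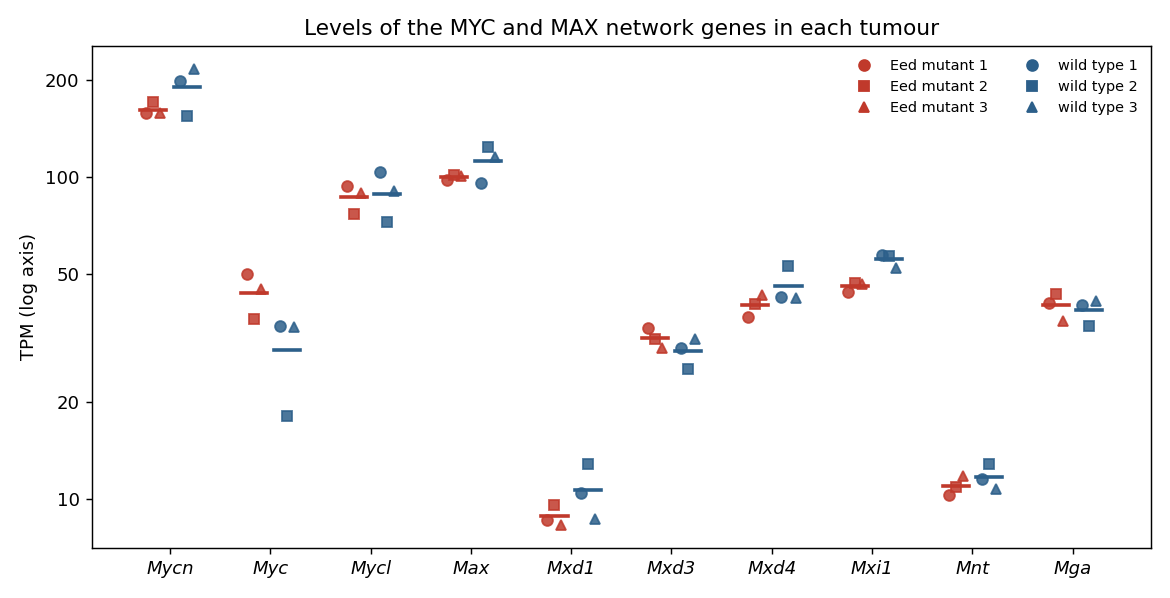
TPM (abundance scaled by transcript length) of each member in each library on a log axis, with Eed mutant tumours left and wild-type tumours right. Marks are libraries and lines are group means. Myc in the mutants lies above every wild-type library, Mxi1 lies below, and the other members overlap.

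On the TPM scale, on which levels of different genes can be compared, Mycn was the highest member, at 158, 170 and 158 TPM in Eed mutant replicates 1 to 3 and 198, 154 and 217 TPM in wild-type replicates 1 to 3. Max followed at a mean of 106 TPM over the 6 libraries, then Mycl at 87.6, Mxi1 at 50.7, Mxd4 at 43.0, Mga at 39.3, Myc at 36.3, Mxd3 at 30.2, Mnt at 11.4 and Mxd1 at 9.77 TPM. The ranges over the 6 libraries did not overlap between Mycn and Max, between Mycl and Mxi1, or between Mxd3 and Mnt. Other neighbours in that order overlapped. Of the Max level, 16.0 to 26.7 TPM in a library came from Max-206, a transcript of 203 bases with 0.782% of Max counts. The place of Max above Mycl is therefore uncertain.

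Among the MYC genes, Mycn (minus strand of chromosome 12, 12936093 to 12941914, GRCm38), the MYC gene of granule progenitors, measured 251, 271 and 245 CPM in the Eed mutants and 307, 242 and 332 CPM in wild type. Wild-type replicate 2, at 242 CPM, lay below all 3 mutants, and the groups overlapped. The log2 fold change was -0.20 (SE 0.120, 95% interval -0.48 to 0.08, adjusted p = 0.406). Leaving out wild-type replicate 3 gave -0.10. Leaving out wild-type replicate 2 gave -0.32, and DESeq2 then gave an adjusted p of 0.0198, the only such pass for Mycn among 7 DESeq2 fits.

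Myc (chromosome 15, 61985391 to 61990374, plus strand), the widely expressed MYC gene, measured 62.0, 42.6 and 54.4 CPM in the Eed mutants and 41.7, 20.9 and 41.1 CPM in wild type. Each mutant lay above each wild-type tumour, narrowly for mutant replicate 2, and wild-type replicate 2 was lowest. The log2 fold change was 0.62 (SE 0.269, 95% interval -0.02 to 1.25, unadjusted p = 0.0549, adjusted p = 0.284 in edgeR and 0.149 in DESeq2). It was 0.36 without wild-type replicate 2. File names carry a code of unknown meaning, which links wild-type replicate 2 to the first pair of mutants and links the third replicates of both groups. Wild-type replicate 1 shares its code with no mutant, so with the code in the model it adds nothing to the difference. The value for Myc was then 0.92, and it did not pass.

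Mycl (chromosome 4, 122995652 to 123002485, plus strand), first found in human small cell lung cancer, measured 170, 138 and 162 CPM in the Eed mutants and 175, 122 and 159 CPM in wild type. The groups overlapped throughout (log2 fold change 0.05, 95% interval -0.29 to 0.38, adjusted p = 0.894). Leaving out wild-type replicate 2 (-0.09) or mutant replicate 1 (-0.02), or using TPM (-0.03), turned its sign.

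Summed over the 3 MYC genes, the RNA level was 301, 283 and 291 TPM in the Eed mutants and 337, 245 and 341 TPM in wild type, with overlapping groups. Myc made up 16.5%, 12.8% and 15.4% of that sum in the mutants and 10.3%, 7.39% and 10.1% in wild type. The share was higher in each mutant than in each wild-type tumour (means 14.9% ± 1.94 in the mutants and 9.23% ± 1.6 in wild type, SD, n = 3 each). Mycn exceeded Myc by 3.17, 4.72 and 3.51 times in the mutants and by 5.75, 8.54 and 6.31 times in wild type, on the TPM scale. These ratios rest on the same values as the shares. Of 16 sums, shares and ratios of the members that were compared, 5 had groups that did not overlap, and they share genes.

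**Figure D2:**
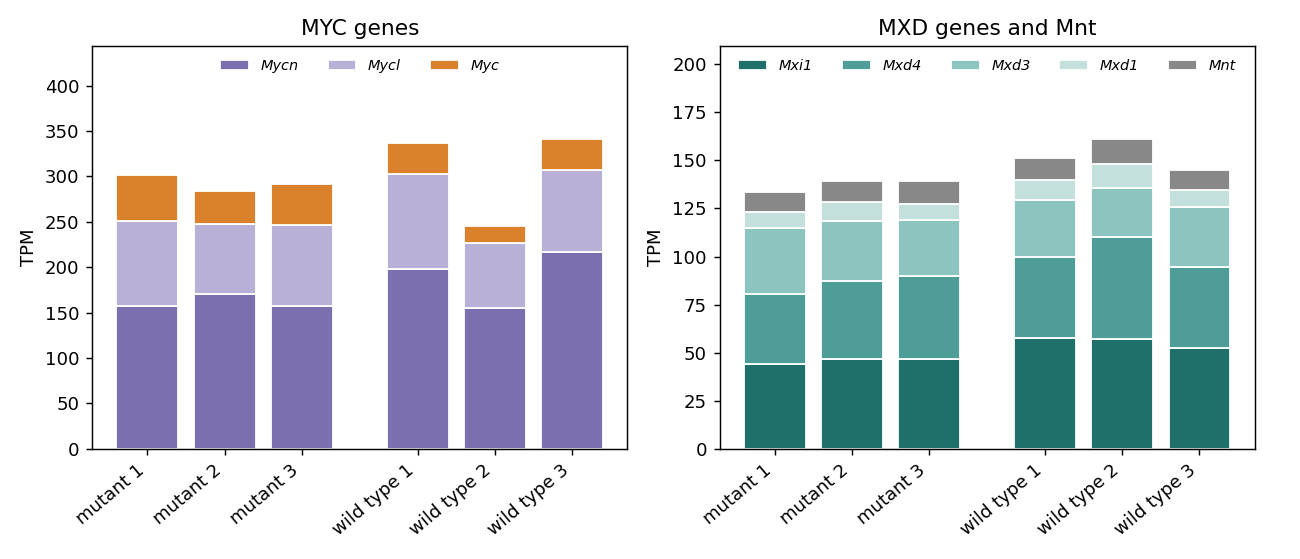
TPM of the 3 MYC genes (left) and of the 4 MXD genes with Mnt (right), stacked by gene, in Eed mutant replicates 1 to 3 and then wild-type replicates 1 to 3. The Myc segment is taller in the mutants, while the MYC total of the mutants (283 to 301 TPM) lies within the wild-type range of 245 to 341 TPM.

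Max (minus strand of chromosome 12, 76937269 to 76962201) encodes the partner that MYC proteins need to bind DNA. It measured 77.6, 81.7 and 75.3 CPM in the Eed mutants and 77.0, 89.1 and 84.7 CPM in wild type. The groups overlapped, and the interval of the log2 fold change was -0.27 to 0.08 (value -0.10, adjusted p = 0.512). The value was -0.15 without wild-type replicate 1 and -0.05 without wild-type replicate 2. Most of its counts, 66.5%, came from Max-201, with a coding sequence of 453 bases. Max-202, whose coding sequence of 480 bases holds an extra exon, took 24.6%, 23.9% and 23.3% of Max counts in the mutants and 29.2%, 30.1% and 24.4% in wild type.

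Among the MXD genes, which are best known from differentiating cells, Mxi1 (chromosome 19, 53310518 to 53375810, plus strand) had the lowest p of all members. It measured 130, 136 and 134 CPM in the Eed mutants and 163, 162 and 149 CPM in wild type. Each mutant lay below each wild-type tumour. The log2 fold change was -0.24 (SE 0.0601, 95% interval -0.38 to -0.10), a difference of -15.4%, with an unadjusted p of 0.00486 and an adjusted p of 0.154 in edgeR and 0.0621 in DESeq2. Without wild-type replicate 3 DESeq2 gave 0.0230, and no other fit passed. Mxi1-201, which starts upstream of the other Mxi1 transcripts, took 77.7%, 83.2% and 77.5% of Mxi1 counts in the mutants and 71.0%, 75.3% and 85.2% in wild type, so the groups overlapped in the use of the start.

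Mxd4 (minus strand of chromosome 5, 34173883 to 34187720) measured 91.2, 94.6 and 99.95 CPM in the Eed mutants and 98.7, 122.7 and 100.9 CPM in wild type, with a log2 fold change of -0.17 (adjusted p = 0.373). Mxd1 (minus strand of chromosome 6, 86647042 to 86669161) measured 23.3, 26.7 and 23.2 CPM in the mutants and 28.3, 34.0 and 23.2 CPM in wild type, with -0.22 (adjusted p = 0.442). Mxd3 (minus strand of chromosome 13, 55325168 to 55329823), the MXD gene known from proliferating progenitors, measured 26.8, 24.8 and 22.6 CPM in the mutants and 22.6, 19.8 and 24.1 CPM in wild type, with 0.16 (adjusted p = 0.466). These groups overlapped in all 3 genes. Without wild-type replicate 2 the log2 fold change was -0.07 for Mxd4, -0.08 for Mxd1 and 0.08 for Mxd3. For Mxd1 it was -0.35 without wild-type replicate 3, and for Mxd3 it was 0.10 without mutant replicate 1. Mxd3 overlaps its opposite-strand neighbour Prelid1 by 105 bases, and strand was not given, so reads in that stretch cannot be assigned. The 4 MXD genes summed to 123, 128 and 128 TPM in the mutants and 140, 148 and 134 TPM in wild type. Each mutant sum lay below each wild-type sum, and Mxi1 and Mxd4 held most of it.

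Mnt (chromosome 11, 74830920 to 74845725, plus strand), the most widely expressed MYC antagonist, measured 33.7, 35.6 and 38.2 CPM in the Eed mutants and 35.0, 37.6 and 32.6 CPM in wild type. The groups overlapped (log2 fold change 0.03, 95% interval -0.17 to 0.23, adjusted p = 0.872), and the sign reversed on the TPM scale (-0.08), with an effective length offset (-0.05), and without mutant replicate 3 or wild-type replicate 3 (-0.02 each). Mga (chromosome 2, 119897228 to 119969581, plus strand), a scaffold of PRC1.6 that also holds a T-box, measured 184, 203 and 150 CPM in the mutants and 170, 150 and 173 CPM in wild type. The groups overlapped (log2 fold change 0.12, 95% interval -0.16 to 0.40, adjusted p = 0.611). Its value was 0.02 without mutant replicate 2, 0.24 without mutant replicate 3 and 0.06 without wild-type replicate 2.

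**Figure D3:**
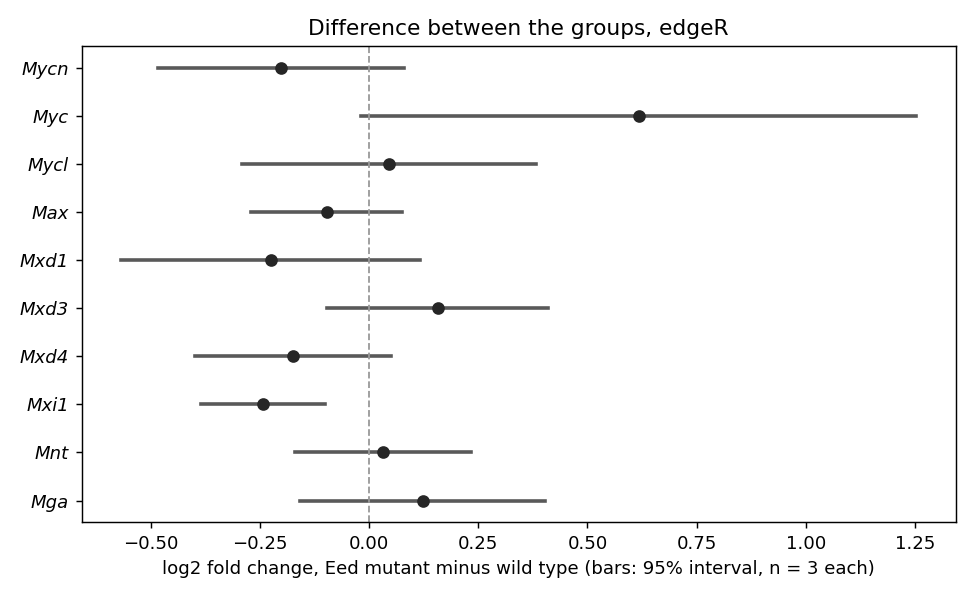
Log2 fold change of each member, Eed mutant minus wild type, from edgeR over 19145 genes. Points are estimates, bars are 95% intervals (n = 3 each) and the dashed line is no difference. The interval of Mxi1 alone lies off 0, and no adjusted p was below 0.05.

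At the level of transcripts, 50 of the 56 member transcripts had counts and 33 had enough to test. edgeR called 0 of 33, against 0% of 50890 tested, and the lowest adjusted p was 0.474. Unadjusted p was under 0.05 for 4 of 33, against 9.81% of all transcripts (5.10% higher and 4.71% lower): Myc-204 above 0 and Mycl-203, Max-202 and Mxi1-201 below. Groups did not overlap for 8 of 33, 4 in each direction, against 17.6% of all transcripts (9.24% higher and 8.36% lower). The 4 higher were Myc-201, Myc-204, Myc-205 and Mycl-205, and Myc-201 and Myc-205 are 1 measurement counted under 2 names. Myc-204, which starts inside the gene, had 18.9, 12.1 and 15.0 TPM in the Eed mutants and 11.8, 7.90 and 11.1 TPM in wild type, and took 30.2% ± 1.87 of Myc counts in the mutants and 31.9% ± 6.22 in wild type. Myc-201 and Myc-205 have identical sequences, so their estimates split the same reads. Mycn-201 and Mycn-202, which share a coding sequence of 1386 bases and differ in their start, took 52.6% ± 2.30 and 46.6% ± 2.16 of Mycn counts in the mutants and 54.8% ± 4.65 and 44.5% ± 4.65 in wild type (SD, n = 3 each). Use of transcripts within a gene gave an unadjusted p under 0.05 for 0 of 31 member transcripts, against 2.19% of all transcripts tested, and the adjusted test called 0 of 31, against 0.179%.

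Profiles across the 6 libraries were compared by Euclidean distance of centred log2 CPM, among 12330 genes with a mean of at least 5 CPM. The nearest to Mycn were Fdx1, Apobec3 and Zfp712 (distances 0.0696, 0.0857 and 0.103, against 0.423 from a flat line). For Myc they were Mmp14, Lrig3 and Ephb4 (0.192, 0.204 and 0.213, against 1.20), each lowest in wild-type replicate 2. For Mycl they were Polr1b, B3galt6 and Crot (0.0853, 0.0925 and 0.0999, against 0.447), and Polr1b, a subunit of RNA polymerase I, is also among the MYC targets below.

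Most of the listed genes that MYC proteins are known to raise had a log2 fold change above 0, but few passed a test. The lists were chosen with earlier results of these data known, and genes of a list are not independent observations. Shares over all genes are given for scale and do not make the counts a test of the list. Of 22 nucleolar and ribosome genes, 22 were above 0, against 9301 of 19145 over all genes, with a median of 0.27, and 15 of 22 had an unadjusted p under 0.05 in edgeR in that direction, against 9.29% of all genes. Groups did not overlap for 15 of 22, each higher in the mutants, against 13.1% of all genes, and 0 of 22 passed edgeR's adjusted p. DESeq2 called 5 of 22 higher, against 2.96% of all genes: Rrp12, Ddx21, Pa2g4, Rrs1 and Npm1. Of 29 listed metabolism and growth genes, 27 were above 0, with a median of 0.21, and 0 of 29 passed edgeR's adjusted p. An unadjusted edgeR p under 0.05 was found for 11 of 29, each higher in the mutants, against 9.29% of all genes. DESeq2 called 2 of 29 higher, Rcc1 and Eif5a, against 2.96% of all genes. Ccnd2 and Tert were the 2 below 0.

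Rrp12, which matures ribosomal subunits, measured 24.8, 22.9 and 23.8 CPM in the Eed mutants and 17.1, 17.3 and 18.1 CPM in wild type (log2 fold change 0.45, SE 0.0802, DESeq2 adjusted p = 0.0031, edgeR 0.130). Ddx21, a nucleolar RNA helicase, measured 203, 181 and 178 CPM in the mutants and 145, 115 and 140 CPM in wild type (0.49, SE 0.101, DESeq2 adjusted p = 0.00351, edgeR 0.143). Eif5a, a translation elongation factor, measured 469, 449 and 449 CPM in the mutants and 374, 365 and 384 CPM in wild type (0.29, SE 0.0610, DESeq2 adjusted p = 0.00329, edgeR 0.144). In each of these genes the 3 mutants lay above the 3 wild-type tumours. Npm1, an abundant nucleolar chaperone, measured 1067, 971 and 916 CPM in the mutants and 800, 578 and 794 CPM in wild type, and has near-identical pseudogenes, so its value is uncertain.

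Eif5a and Eif4e, both among the 4 metabolism genes with the lowest p, hold CACGTG near their RefSeq starts, and the 30 bases around each copy are shown. The windows of Rcc1 and Phb2, the other 2 of these 4, and of the nucleolar genes Ddx21 and Pa2g4 do not hold those letters. Of the metabolism list, 14 of 38 windows held it, for 11 of 27 genes with a window (36.8% of windows, against 7.15% of all windows), and of the nucleolar list 3 of 18 windows:
Eif5a, GRCm38.p6 chr11:69920791-69920820, minus strand: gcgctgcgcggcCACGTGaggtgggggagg
Eif5a, GRCm38.p6 chr11:69921443-69921472, minus strand: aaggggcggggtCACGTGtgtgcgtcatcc
Eif4e, GRCm38.p6 chr3:138527028-138527057, plus strand: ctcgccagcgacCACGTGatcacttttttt
Eif4e, GRCm38.p6 chr3:138527192-138527221, plus strand: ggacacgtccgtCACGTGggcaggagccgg
The capitals mark the motif. Both lists were made of known MYC targets, so their share of windows with the motif is no independent test. Eif4e, the cap-binding translation factor, measured 195, 183 and 173 CPM in the Eed mutants and 147, 146 and 165 CPM in wild type (log2 fold change 0.27, edgeR adjusted p = 0.170, DESeq2 0.0843), and did not pass.

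These counts moved when single libraries were left out. Without mutant replicate 1, unadjusted p stayed under 0.05 for 6 of 22 nucleolar and 3 of 29 metabolism genes. Over all genes, 986 of 19633 then reached that level in the higher direction, against 1779 of 19145 with every library. Still above 0 were 22 of 22 nucleolar genes (median 0.23) and 26 of 29 metabolism genes (median 0.17). DESeq2 passed 0 genes of either list in that setting. Without mutant replicate 2, DESeq2 called 2 nucleolar genes higher (Rrp12 and Ddx21), 2 metabolism genes higher (Hk2 and Eif5a) and 1 metabolism gene lower (Ccnd2). Without mutant replicate 3 it called 2 nucleolar genes (Ddx21 and Pa2g4) and 0 metabolism genes. Without wild-type replicate 1, 2 or 3 it called 4, 4 and 8 nucleolar genes and 2, 3 and 7 metabolism genes, each higher. The share over all genes was not counted for DESeq2 fits without 1 library. Those counts therefore cannot show whether the lists moved more than other genes. Without wild-type replicate 2, 21 of 22 nucleolar and 25 of 29 metabolism genes were above 0, and the metabolism median was 0.14. The nucleolar sum was 4262, 3894 and 3864 CPM in the Eed mutants and 3392, 2762 and 3451 CPM in wild type. Markers of proliferating cells were above 0 in 10 of 10 (median 0.24), and 0 of 10 passed DESeq2. An unadjusted edgeR p under 0.05 was found for 4 of 10, each higher, against 9.29% of all genes. Their sums were 3394, 3498 and 2955 CPM in the mutants and 2749, 2377 and 3043 CPM in wild type, and the groups overlapped. Granule progenitor markers were below 0 in 6 of 7 and above 0 in 1 (median -0.23), and DESeq2 called 1 of 7 lower, Barhl2. The 1 above 0 was Atoh1, at 0.59 with an unadjusted edgeR p under 0.05. DESeq2 called Atoh1 higher without wild-type replicate 3, but not with every library or without any other. Without wild-type replicate 2 the granule progenitor markers were below 0 in 5 of 7 (median -0.11), with 0 called. Markers of several other cell types differed between the groups as well. Differentiated granule neuron markers were below 0 in 8 of 8 (median -0.70), and DESeq2 called 3 of 8 lower, against 2.26% of all genes. Without wild-type replicate 2 they were below 0 in 6 of 8 (median -0.29), with 0 of 8 called. Oligodendrocyte markers were below 0 in 9 of 11 (median -1.30), with 8 of 11 called lower, and without wild-type replicate 2 the median was -0.84, with 7 of 11 called. Purkinje cell markers were below 0 in 6 of 6 (median -0.73, 2 called lower), and their sums were 497, 362 and 510 CPM in the Eed mutants and 569, 891 and 714 CPM in wild type. Microglia markers were below 0 in 9 of 9 (median -0.30, 1 called lower), with sums of 254, 276 and 311 CPM in the mutants and 419, 364 and 280 CPM in wild type. Endothelial markers were above 0 in 7 of 7 (median 0.37, 2 called higher), with sums of 167, 159 and 167 CPM in the mutants and 110, 128 and 146 CPM in wild type. Skeletal muscle markers were above 0 in 8 of 8 (median 3.78, 6 called higher), with sums of 160, 124 and 373 CPM in the mutants and 54.3, 58.5 and 102 CPM in wild type. The part of these cells in the result was not tested.

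**Figure D4:**
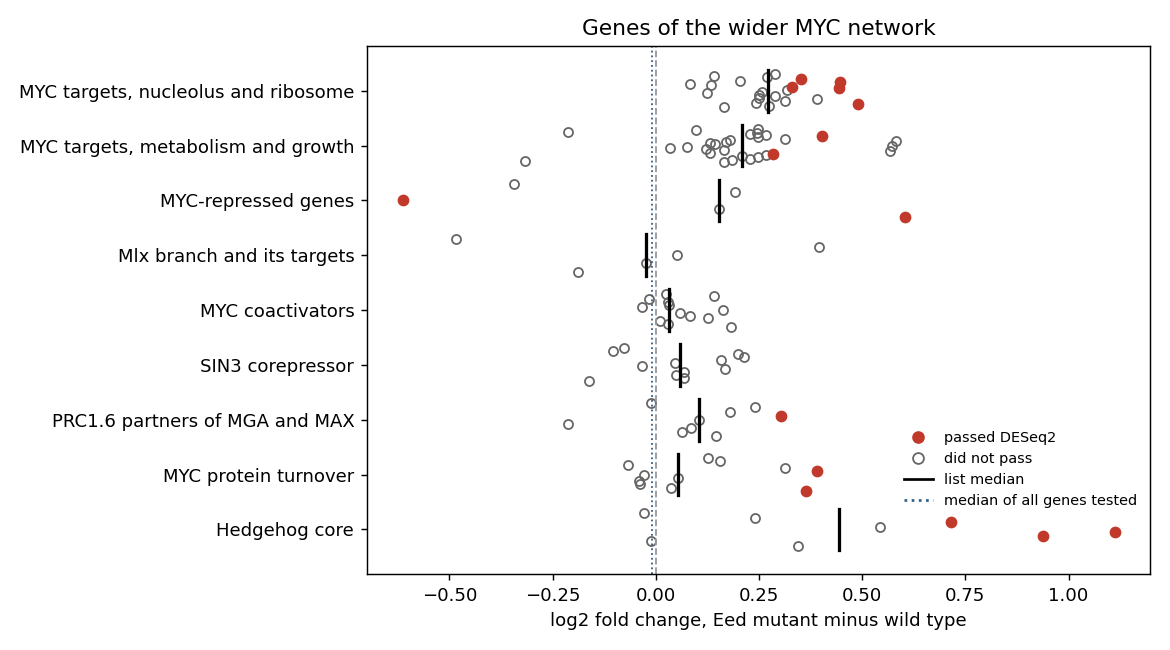
Log2 fold change, Eed mutant minus wild type, of each tested gene in 9 lists. Filled points passed DESeq2, open points did not, black lines are list medians and the dotted line is the median of all genes tested (-0.01). Both MYC target lists lie mostly above 0, while the coactivator and SIN3 lists lie near it.

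Genes reported to be repressed by MYC did not share a direction. Gadd45a, a stress and DNA damage gene, was lower, at 11.3, 11.7 and 12.7 CPM in the Eed mutants and 19.1, 18.1 and 17.5 CPM in wild type (log2 fold change -0.61, SE 0.0970, DESeq2 adjusted p = 0.000176, edgeR 0.116), and passed DESeq2 in each of the 6 fits that left out 1 library. Cdkn1a, a cyclin-dependent kinase inhibitor, went the other way, at 36.0, 47.2 and 40.9 CPM in the mutants and 21.3, 29.6 and 30.7 CPM in wild type (0.60, DESeq2 adjusted p = 0.0216), and passed without wild-type replicate 2 or 3 but not without any other library. The other 3 genes of that list did not pass.

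Cofactors of the network mostly did not pass. Of 13 coactivator genes 0 passed, with 11 above 0 and a median of 0.03. Of 12 genes of the SIN3 corepressor, which MXD proteins and MNT recruit, 0 passed, with 8 above 0 and a median of 0.06. Its scaffold Sin3a was at 0.20 (edgeR adjusted p = 0.193). An unadjusted edgeR p under 0.05 was found for 1 of 13 coactivator and 3 of 12 SIN3 genes, each higher, against 9.29% of all genes. In PRC1.6, the complex of MGA and MAX, DESeq2 called 1 of 9 genes higher, against 2.96% of all genes: Rnf2, an E3 ligase for histone H2A. It measured 153, 153 and 136 CPM in the Eed mutants and 113, 118 and 127 CPM in wild type (DESeq2 adjusted p = 0.0478, edgeR 0.154), and of the 6 fits that left out 1 library it passed only without wild-type replicate 3. Pcgf6, the subunit that defines PRC1.6, was at -0.21 (edgeR adjusted p = 0.247). Of the 9 PRC1.6 genes, 7 were above 0 and 2 below, with a median of 0.10. In the MLX branch, whose MLX protein pairs with some MXD proteins and MNT, 0 of 5 genes passed, with Txnip, a glucose-responsive target, at -0.48 (edgeR adjusted p = 0.295).

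Among 11 genes of MYC protein turnover DESeq2 called 2 higher, against 2.96% of all genes: Aurka and Plk1, mitotic kinases known to stabilise MYCN protein and also markers of dividing cells. Aurka measured 77.7, 74.6 and 69.0 CPM in the Eed mutants and 54.3, 56.9 and 60.9 CPM in wild type (log2 fold change 0.36, DESeq2 adjusted p = 0.0111, edgeR 0.143). Plk1 measured 92.6, 99.1 and 83.9 CPM in the mutants and 72.5, 64.9 and 73.0 CPM in wild type (0.39, DESeq2 adjusted p = 0.0131, edgeR 0.144). The groups did not overlap for either gene, neither passed DESeq2 without mutant replicate 1 or 2, and Aurka did not pass without wild-type replicate 1. Fbxw7, which marks MYC proteins for destruction, was at 0.04 (edgeR adjusted p = 0.783).

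Hedgehog core genes, which act upstream of Mycn in granule progenitors, were above 0 in 6 of 8, with a median of 0.44. The median was 0.26 without wild-type replicate 2. DESeq2 called 3 of 8 higher, against 2.96% of all genes, among them Gli3 and Hhip, but only Gli3 without mutant replicate 1 and only Hhip without mutant replicate 3. Hhip, a ligand-binding inhibitor and pathway target, measured 161, 101 and 133 CPM in the Eed mutants and 65.9, 37.9 and 78.7 CPM in wild type (log2 fold change 1.11, DESeq2 adjusted p = 0.00157, edgeR 0.154). Hhip did not pass without mutant replicate 1 or wild-type replicate 1. The log2 fold change of Mycn was -0.20, with a 95% interval that held 0 (-0.48 to 0.08, edgeR adjusted p = 0.406). Its relation to the Hedgehog genes was not tested.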

How the data were processed

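The authors deposited 1 kallisto table per sample with estimated counts and TPM for each transcript, per the file headers. Per the submitters' processing notes, quantification used kallisto 0.43.1 with builds GRCm38 and mm10. The sources used here give no strand, read length or RNA selection. Estimated counts were summed per gene, rounded and tested with edgeR 4.0.16 (TMM, default filter on low counts, quasi-likelihood F-test) in R 4.3.3, mutant minus wild type, with Benjamini-Hochberg adjustment over all genes at 0.05. DESeq2 1.42.0 and limma 3.58.1 were alternatives. Transcripts were tested in the same way, and transcript use with edgeR's diffSpliceDGE. Coordinates come from GENCODE M21 on GRCm38. The members and gene lists were chosen with earlier results of these data known. Named list genes are up to 4 by lowest edgeR p plus any that passed a test; Fbxw7 was chosen after its value was seen. Some genes under this rule are not reported here. Fits were tested on simulated counts: DESeq2 made more false calls there than its threshold allows, and most calls of transcript use were false, so those calls are unreliable. The labels do not say whether replicate numbers pair the samples, and they were not taken as pairs.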

Additional observations from a re-analysis of the deposited data

How the results depend on the processing

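Member results kept their direction and their side of the threshold in 153 of 160 alternatives to the edgeR fit and in 63 of 70 DESeq2 fits. Mycl reversed sign on log2(TPM + 1) (-0.0262) and, without each library in turn, ranged from -0.091 to 0.159 (DESeq2 -0.0878 to 0.1588), below 0 without mutant replicate 1 or wild-type replicate 2. Mnt reversed on log2(TPM + 1) (-0.0814) and with a length offset (-0.05), and ranged from -0.0182 to 0.0853 without each library (DESeq2 -0.0176 to 0.0887), below 0 without mutant or wild-type replicate 3. DESeq2 alone passed Mycn, Mxi1 and Myc in 1 fit each, Myc with the replicate number as a block (adjusted p = 0.000816). Against 0 genes in edgeR, DESeq2 called 923, limma-voom on unrounded counts 1, no filter 3 and the replicate block 273, and 0 to 9 were called without each library in turn. Calls of transcript use, 76 in all, were 41 with a CPM filter and 121 to 179 without each library. With the file code as a term, 6 metabolism genes had an unadjusted p under 0.05, and without each library the counts were 3 to 14 for metabolism (main count 11) and 6 to 15 for nucleolar genes (main count 15). The metabolism median was 0.14 to 0.25 without each library. The cause of these shifts was not tested. Same-numbered samples correlated at 0.227, 0.0624 and -0.135 after removing group means, so the numbers were not taken as pairs.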
